A study of Mus musculus with 11 samples.

Results

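The trypsinogens of the mouse pancreas and the inhibitor that guards them were followed in bulk RNA of whole pancreas. The members were the 6 trypsinogen genes named Prss1, Prss2, Prss3, Try4, Try5 and Try10 in the deposited count table and the trypsin inhibitor Spink1, which makes 7 of 54532 genes, chosen by name and not by any measured value. All 7 passed the filter on low counts that left 14113 genes to test. The 11 libraries, 1 mouse each by the labels, came from C57BL/6JRj mice. There were 3 aged mice (18 months) given caerulein, 3 young mice (7 weeks) given caerulein, 2 aged untreated mice and 3 young untreated mice. Caerulein, an analogue of the gut hormone cholecystokinin that drives acinar cells to secrete and injures them in excess, was injected into the peritoneum 4 times at hourly intervals at 125 µg/kg, and the treated libraries carry the label 5H. The stated question was how age changes the start of pancreatitis. The labels name no allele, though they say that the mice were genotyped, and they mention no vehicle injection for the untreated mice.

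Trypsinogens are the inactive forms in which acinar cells store trypsin in their zymogen granules. In the gut, enteropeptidase cuts them behind a short run of aspartates that ends in a lysine, and the trypsin set free then cuts the other digestive zymogens. When trypsinogen is cut inside the acinar cell instead, by the lysosomal protease cathepsin B or by trypsin itself, the cell digests its own contents, which is a classic early event of pancreatitis. Spink1 is the first line of defence, a small protein of the same granules that plugs the active site of trypsin, and chymotrypsin C, encoded by Ctrc, degrades trypsinogen as a further safeguard.

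The 6 trypsinogen genes lie within 222.8 kb of chromosome 6 (mm10, 41302269 to 41525079). Try4 (41302269 to 41305532), Try10 (41354105 to 41357914), Prss1 (41458932 to 41463786) and Prss2 (41521787 to 41525079) are read from the plus strand, and Try5 (41311233 to 41316841) and Prss3 (41373814 to 41377678) from the minus strand. Another 7 trypsin-like loci of the same region were read beside them, which are Gm4744, 1810009J06Rik, Gm2663, 2210010C04Rik, Gm5771, Gm5409 and Gm10334, so that the 13 loci span 576.7 kb. They carry only clone-style or predicted names, and their transcripts align to a member or to each other. The closest match of 2210010C04Rik was Try10, at 77.2% identity over 734 aligned columns, and the closest match of Gm5771 was Prss1, at 97.4% over 779 columns. Gm5409 is an unprocessed pseudogene in the deposited annotation, and Gm4744 is protein coding there and a pseudogene in RefSeq (GRCm38.p6). Gm4744 was added to these loci after its values were seen.

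The start of the coding sequence shows what sets the loci apart. The lines below run from the start codon to 12 bases past the lysine codon of the activation site (GENCODE M21 transcripts, GRCm38), with the aspartate codons and the lysine codon in capitals. They were chosen because these 7 loci carry the largest part of the counts or the largest changes.
Prss2: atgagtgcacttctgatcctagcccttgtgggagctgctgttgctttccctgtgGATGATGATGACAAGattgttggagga
Try4: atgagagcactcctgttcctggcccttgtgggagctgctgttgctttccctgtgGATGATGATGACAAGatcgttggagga
Try5: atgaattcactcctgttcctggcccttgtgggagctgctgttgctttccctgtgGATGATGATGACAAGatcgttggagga
Gm5771: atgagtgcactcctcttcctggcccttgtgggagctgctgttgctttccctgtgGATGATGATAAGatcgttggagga
2210010C04Rik: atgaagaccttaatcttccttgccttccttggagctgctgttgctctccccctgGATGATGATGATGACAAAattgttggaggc
Gm2663: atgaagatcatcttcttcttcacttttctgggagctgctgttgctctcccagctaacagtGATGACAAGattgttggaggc
1810009J06Rik: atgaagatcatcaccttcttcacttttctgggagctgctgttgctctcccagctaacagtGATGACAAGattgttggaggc
All 6 members had 4 aspartate codons before the lysine codon. There were 5 in 2210010C04Rik, 3 in Gm5771, 4 in Gm10334 and 2 in each of Gm2663 and 1810009J06Rik, where an AAC and an AGT codon precede them. The search asked for these codons in frame behind a start codon, with set letters after the lysine codon. It found such a stretch in 11 of the 13 loci and not in Gm4744 and Gm5409. A miss does not show that the codons themselves are absent there.

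How closely these transcripts resemble each other bears on every count below. Cut into windows of 150 bases, the length of 1 read, Gm2663 shared 53.2% of its windows with another locus, above all 1810009J06Rik, to which it is 99.4% identical. Prss3 shared 31.2% with other loci, above all Gm10334, Try4 shared 19.2% and Try5 16.6% above all with each other, and Prss1 shared 3.66%. Prss2, Try10, 2210010C04Rik, Gm4744 and Spink1 shared none. Reads that fall in shared windows may have been dropped, split or credited to the other gene, so the single levels of Prss3, Gm10334, Try4, Try5, Gm2663 and 1810009J06Rik may be less certain than their sums.

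Total counts ran from 14223190 to 26537091 per library, and all 15 acinar markers were detected in each, with a summed level of 383000 to 409000 CPM (counts scaled to a common library total) in aged caerulein, 381000 to 399000 in young caerulein, 530000 to 561000 in aged untreated and 501000 to 546000 in young untreated libraries. In bulk tissue, fewer acinar cells and less transcript per acinar cell cannot be told apart. Summed duct markers moved the other way, at 208 to 299 CPM in aged caerulein and 276 to 298 in young caerulein libraries, against 60.3 to 71.7 in aged untreated and 40.7 to 67.0 in young untreated libraries, and their part in the results was not tested. The library of young untreated mouse 2 stood apart. Its summed B cell markers reached 145 CPM against at most 1.33 in the other libraries, T cell markers 107 against at most 3.05, macrophage markers 152 against at most 42.2 and adipocyte markers 256 against at most 28.5. It also held the lowest acinar sum of the untreated libraries, so results that lean on it are given with and without it.

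Compared per transcript length, as FPKM (the deposited fragments per kilobase and depth, scaled by library), the members fell into 3 tiers. Prss2, Try4 and Try5 formed the top. In aged caerulein libraries Prss2 averaged 43560 FPKM, Try4 29830 and Try5 24480, and in young caerulein libraries 37250, 36370 and 27490. In aged untreated libraries these 3 averaged 70630, 52000 and 31140 FPKM, and in young untreated libraries 56040, 61310 and 29040. Prss2 lay above Try4 without overlap in both aged groups, and the 2 genes overlapped in both young groups. Try5 lay below Try4 without overlap in every group but aged caerulein, where the 2 overlapped. The middle tier held Spink1, at group means of 1700 to 2686 FPKM, and Prss3, at 855.4 to 3231 FPKM. Spink1 lay above Prss3 without overlap in 3 groups, and the 2 overlapped in young untreated mice. Try10 followed at group means of 145.2 to 475.4 FPKM and Prss1 stood last at 8.732 to 36.41 FPKM, below Try10 without overlap in every group. Among the other loci, 2210010C04Rik averaged 11120 and 9125 FPKM in aged and young caerulein mice and 29360 and 21870 FPKM in aged and young untreated mice.

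**Figure D1:**
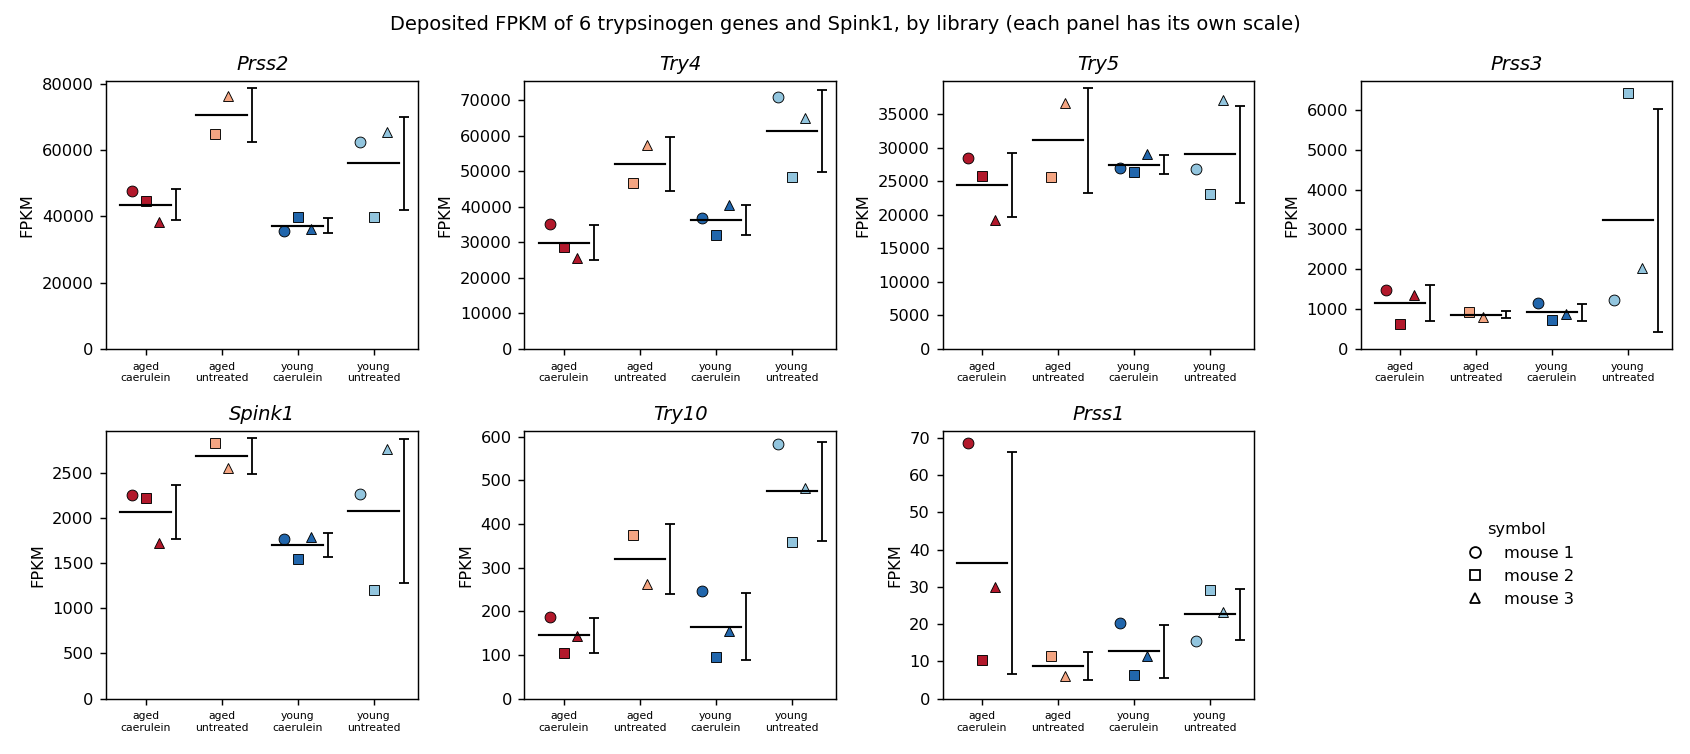
FPKM of the 6 trypsinogen genes and Spink1 in each library (vertical axis from 0, a scale of its own per panel). Points are libraries, with the mouse number as the symbol, short lines are group means and bars are SD (n = 3, and n = 2 for aged untreated). The means of Prss2, Try4 and Try10 sit lower in the caerulein groups, and the single high point of Prss3 is young untreated mouse 2 at 6430 FPKM.

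In young mice caerulein was set against no treatment, the comparison that asks what the start of injury does. Relative to the whole transcriptome 4 of the 7 members fell, Prss2, Prss3, Try4 and Try10, and 0 rose (edgeR's quasi-likelihood test, Benjamini-Hochberg adjusted p below 0.05 over all genes). Over all genes tested 52.3% were called, 24.7% lower and 27.5% higher, and in 26.6% every treated library lay below and in 30.7% above every untreated one. The median log2 fold change was -0.71 over the members and -0.06 over all genes. Spink1, Try5 and Prss1 did not pass. Without young untreated mouse 2 the count was 5 lower and 0 higher, with Spink1 added.

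Try4, one of the main trypsinogens by level, had 30250, 26280 and 33040 TMM-scaled CPM (CPM on library totals corrected by edgeR's TMM factor, the scale of all CPM from here on) in young caerulein mice 1 to 3, against 56540, 39150 and 51070 in young untreated mice. Every treated library lay below every untreated one. The log2 fold change was -0.71 ± 0.21 (SE), a 1.64-fold lower level (adjusted p = 0.0137). The call was lost without caerulein mouse 2 (adjusted p = 0.0644) and with low counts kept (adjusted p = 0.235).

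Prss2, the other leading trypsinogen, had 29770, 33390 and 30200 CPM in young caerulein mice, against 50880, 32910 and 52590 in young untreated mice. The groups overlapped, since untreated mouse 2 was as low as the treated ones. Its log2 fold change was -0.55 ± 0.21 (adjusted p = 0.0455), and the call held in 7 of 20 alternatives and in 2 of the 11 fits that left out 1 library. It was lost with the mouse number as a block (-0.53, adjusted p = 0.0957), when low counts were kept (adjusted p = 0.416) and with only the groups compared (adjusted p = 0.106).

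Try10, a minor trypsinogen, had 217.4, 83.77 and 135.5 CPM in young caerulein mice, against 501.3, 311.4 and 409.2 in young untreated mice. The groups did not overlap. Its fold change of -1.48 ± 0.33 (adjusted p = 0.00341) was called under each of the 20 alternatives run.

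Prss3 had 980.4, 610 and 730.2 CPM in young caerulein mice, against 1014, 5344 and 1638 in young untreated mice. The groups did not overlap, but untreated mouse 2 stood far above the rest. A log2 fold change of -1.78 ± 0.53 (adjusted p = 0.016) became -0.83 without that library, still called lower, and was no longer called without caerulein mouse 2 (adjusted p = 0.0608) or mouse 3 (adjusted p = 0.0537).

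Try5, the third of the abundant trypsinogens, had 24990, 24460 and 26800 CPM in young caerulein mice, against 24160, 21130 and 32920 in young untreated mice. The treated libraries lay inside the untreated range (log2 fold change -0.04 ± 0.23, adjusted p = 0.907). Prss1, the lowest member, had 16.8, 5.211 and 9.345 CPM in young caerulein mice, against 12.47, 23.76 and 18.34 in young untreated mice (-0.80 ± 0.59, adjusted p = 0.274).

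Spink1, whose gene lies on chromosome 18, had 764.2, 669.7 and 771.9 CPM in young caerulein mice, against 952.3, 514.2 and 1146 in young untreated mice. The treated values lay between the odd untreated library and the other 2. Its change was -0.24 ± 0.24 (adjusted p = 0.424), and -0.56 without untreated mouse 2 (adjusted p = 0.00263).

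In aged mice the same comparison gave 3 members lower, Prss2, Try4 and Try10, and 1 higher, Prss1. Over all genes 48.2% were called, 21.2% lower and 27% higher, and in 33.4% every treated library lay below and in 37.8% above every untreated one. The median log2 fold change was -0.33 over the members and 0.07 over all genes. Both age groups have untreated groups of their own. Without young untreated mouse 2, which enters through the shared fit, the aged count was 4 lower and 1 higher, and without aged untreated mouse 3 it was 0 lower and 0 higher.

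Try4 had 28940, 23400 and 20960 CPM in aged caerulein mice 1 to 3, against 36830 and 45840 in aged untreated mice 2 and 3. Both untreated values lay above all treated ones (log2 fold change -0.76 ± 0.23, adjusted p = 0.0168). The call was lost without untreated mouse 3 (-0.57, adjusted p = 0.168), caerulein mouse 2 (adjusted p = 0.0514) or caerulein mouse 3 (adjusted p = 0.0537), and with low counts kept (adjusted p = 0.292). Prss2 had 39940, 36820 and 32100 CPM in aged caerulein mice, against 52040 and 62160 in aged untreated mice. There was no overlap here either (-0.65 ± 0.23, adjusted p = 0.0348), and the call held in 9 of 20 alternatives and in 3 of the 11 fits that left out 1 library. It was lost with the mouse number as a block (-0.69, adjusted p = 0.0653), with low counts kept (adjusted p = 0.415) and without untreated mouse 3 (-0.50, adjusted p = 0.242).

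Try10 had 164.7, 91.93 and 126.8 CPM in aged caerulein mice, against 318 and 226.5 in aged untreated mice. All treated libraries were lower (-1.09 ± 0.36, adjusted p = 0.0276). The call was lost without untreated mouse 2 (-0.81, adjusted p = 0.224), untreated mouse 3 (adjusted p = 0.0547), caerulein mouse 2 (adjusted p = 0.0938) or caerulein mouse 3 (adjusted p = 0.0644). Try5 had 26360, 23620 and 17720 CPM in aged caerulein mice, against 22720 and 33040 in aged untreated mice. These overlapped (-0.30 ± 0.25, adjusted p = 0.351).

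Prss1 had 56.92, 8.472 and 24.79 CPM in aged caerulein mice, against 8.984 and 4.925 in aged untreated mice. Caerulein mouse 2 lay inside the untreated range and mouse 1 far above it. The log2 fold change of 2.14 ± 0.73 (adjusted p = 0.0309) was 1.27 without caerulein mouse 1 (adjusted p = 0.125), 2.63 without untreated mouse 2 (adjusted p = 0.082), 1.77 without untreated mouse 3 (adjusted p = 0.21) and 1.60 with the mouse block (adjusted p = 0.0957), so that call rests on single libraries. Prss3 had 1244, 531 and 1143 CPM in aged caerulein mice, against 741.7 and 651.7 in aged untreated mice, which overlapped (0.48 ± 0.59, adjusted p = 0.535).

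Spink1 had 977.7, 949 and 745.6 CPM in aged caerulein mice, against 1172 and 1074 in aged untreated mice. All treated libraries lay below both untreated ones, as did 33.4% of all genes tested. This was a change of -0.33 ± 0.27 (adjusted p = 0.341), and -0.40 without young untreated mouse 2 (adjusted p = 0.0205). In the authors' deposited table the same comparison stood at -0.37 with an adjusted p of 0.0129.

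These falls are relative to the other transcripts, and the scaling decides how large they look. TMM sets the typical gene at no change, whereas library totals alone put the median of all genes at 0.43 in young and 0.69 in aged mice on the log2 scale, with 37.8% of genes called higher and 9.01% lower in young mice, and 38.6% and 7.63% in aged mice. On that scale Prss2 was at 0.01 and -0.04, Try4 at -0.17 and -0.15 and Spink1 at 0.35 and 0.26 in young and aged mice, and none of these 6 values was called. Try5, at -0.04 by TMM in young mice, was at 0.50 by library totals and called higher there (adjusted p = 0.00881). Try10 was called lower in young mice under both scalings, at -0.92 by library totals, and was at -0.50 in aged mice, not called.

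**Figure D2:**
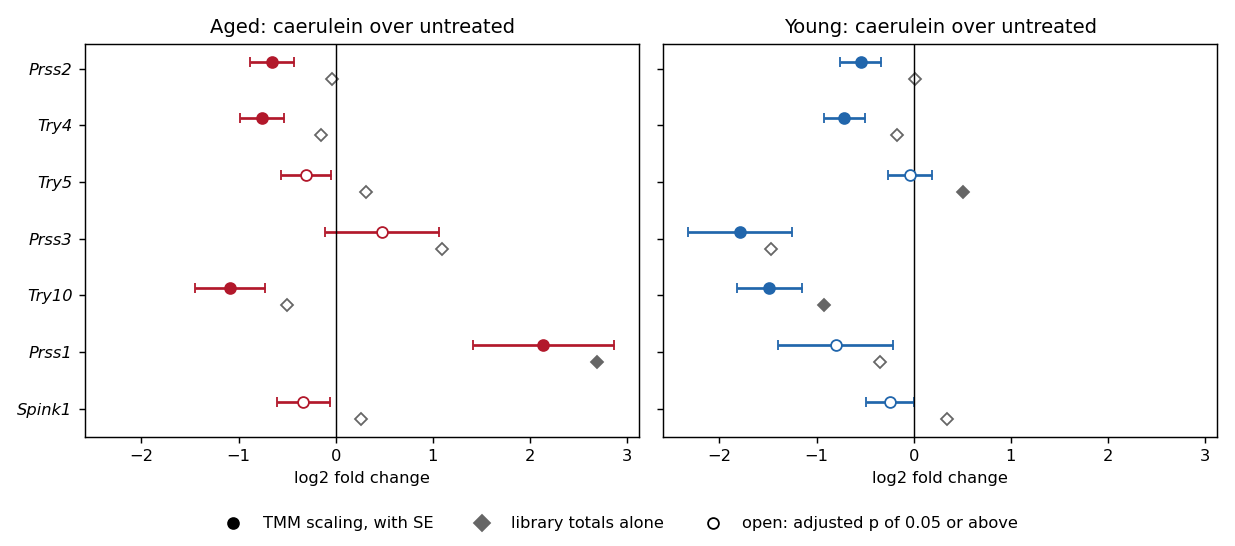
Log2 fold change of each member, caerulein over untreated, in aged mice (left) and young mice (right). Circles with SE bars are TMM-scaled, grey diamonds are scaled by library totals alone, and filled symbols had an adjusted p below 0.05. Prss2 is at -0.65 in aged and -0.55 in young mice by TMM, and at -0.04 and 0.01 by library totals.

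The share of all gene counts rests on library totals too, and only the ratios among the members, given after it, are free of the scaling. The 6 trypsinogens together made up 10.19%, 9.421% and 9.137% of all gene counts in aged caerulein mice, 11.15%, 10.5% and 10.81% in young caerulein mice, 8.995% and 9.882% in aged untreated mice, and 10.03%, 11.19% and 10.31% in young untreated mice. Treated and untreated libraries overlapped at each age, and stratified by age the difference of 0.227 percentage points had an exact permutation p of 0.465 (two-sided). With the other trypsin loci except Gm4744 added to the sum, the same difference was -0.804 points (exact permutation p = 0.04, not adjusted). With FPKM in place of counts the difference was 2.26 points (exact permutation p = 0.005, not adjusted), so the direction rests on the loci summed and the unit. The share was lower in aged than in young mice in both treatments without overlap, by 1.16 points stratified by treatment, with 9.583% ± 0.545 in aged caerulein against 10.82% ± 0.325 in young caerulein mice (SD, n = 3 each) and 9.438% ± 0.627 (n = 2) in aged against 10.51% ± 0.605 (n = 3) in young untreated mice. The exact permutation p was 0.01, and 0.108 after adjustment over the 54 such tests made, so it did not pass. In untreated mice the age difference was -1.07 points. With the other trypsin loci except Gm4744 added it was -0.396 points (exact permutation p = 0.5, not adjusted), so its size rests on the loci summed. A permutation within 1 age or 1 treatment cannot go below 0.1, and a stratified one cannot go below 0.005. The 95% Wilson intervals of these shares were at most 0.0151 points to either side, which covers counting error only.

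The make-up of that pool was then compared. Try4 supplied 27.7% to 29.93% of the trypsinogen counts in aged caerulein, 30.98% to 36.34% in young caerulein, 32.3% to 32.69% in aged untreated and 36.83% to 42.47% in young untreated libraries. Its share differed by -4.55 points after caerulein and by -6.19 points in aged mice, lower in both, without overlap in each of the 4 pairs of groups, and each exact permutation p was 0.005, the smallest this design can give (adjusted 0.09). Try5 supplied a larger part after caerulein without overlap, with 24.59% to 27.96% in aged and 28.83% to 29.48% in young caerulein libraries, against 20.17% to 23.28% in aged and 18.15% to 23.74% in young untreated libraries (6.45 points, exact permutation p = 0.01, adjusted 0.108). Try4 and Try5 share windows of read length, and how reads in them were counted is not known, so a shift between the 2 may be less certain than their sum.

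Prss2, which shared no window of read length with another locus, supplied 43.14% ± 1.67 of the pool in aged caerulein and 35.71% ± 3.24 in young caerulein mice (SD, n = 3 each), and 45.0% ± 1.70 (n = 2) in aged and 36.48% ± 2.77 (n = 3) in young untreated mice. Every aged library lay above every young library of the same treatment. The age difference of 7.98 points had an exact permutation p of 0.005 (adjusted 0.09), and caerulein moved the share by -1.32 points (exact permutation p = 0.365). No share passed after adjustment. Taken as parts of all the trypsin loci except Gm4744, the age difference of Prss2 was 3.89 points. The caerulein differences were then 1.47 points for Prss2 and -1.37 points for Try4.

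**Figure D3:**
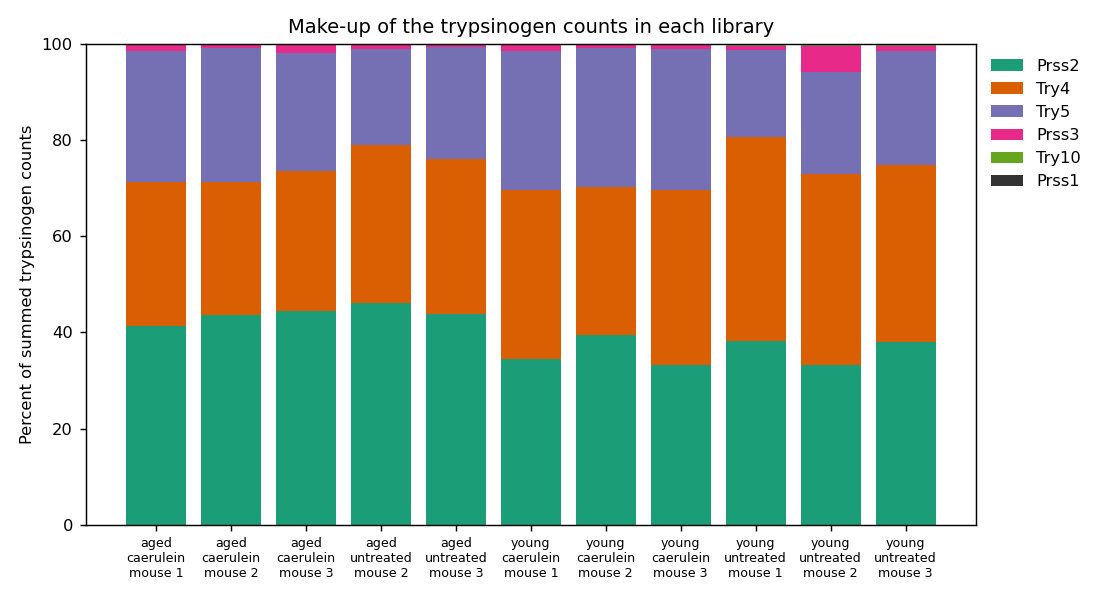
Percent of the summed counts of the 6 trypsinogens that each gene supplied, 1 bar per library (vertical axis 0 to 100). The Prss2 part is 41.3% to 46.2% in the 5 aged libraries and 33.22% to 39.37% in the 6 young ones, and the Prss3 part of 5.406% in young untreated mouse 2 is the largest.

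The inhibitor was then set against its targets. There were 10.11, 11.23 and 10.34 Spink1 counts per 1000 trypsinogen counts in aged caerulein mice 1 to 3, 8.863, 7.895 and 8.491 in young caerulein mice, 10.41 and 7.57 in aged untreated mice 2 and 3, and 7.155, 5.201 and 8.262 in young untreated mice. The aged caerulein libraries lay above the young caerulein ones without overlap, and each pair of treated and untreated groups overlapped. Stratified by age the ratio was higher by 1.56 after caerulein (exact permutation p = 0.045, adjusted 0.245), and stratified by treatment it was higher by 2.13 in aged mice (exact permutation p = 0.02, adjusted 0.135). Neither passed the adjustment. Leaving out single libraries moved the caerulein difference between 0.85 and 2.27, and with FPKM in place of counts it was 3.19.

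**Figure D4:**
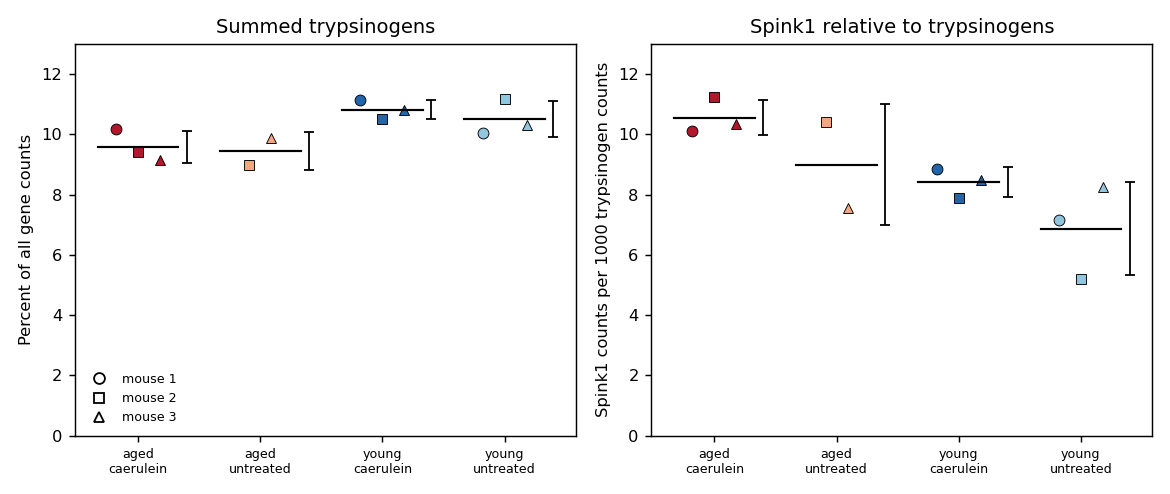
Left, the 6 trypsinogens as a percent of all gene counts, and right, Spink1 counts per 1000 trypsinogen counts, by library (vertical axes from 0). Points are libraries, lines group means and bars SD. The aged groups average 9.583% and 9.438% on the left, under 10.82% and 10.51% in the young groups, and the aged caerulein group is highest on the right.

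Age was tested gene by gene in each treatment. In treated mice 0 of 7 members differed between aged and young, against 3.73% of all genes, 2.46% higher and 1.27% lower (edgeR's quasi-likelihood test, adjusted p below 0.05). In untreated mice 0 of 7 differed, against 0.0921% of all genes, 0.0567% higher and 0.0354% lower. Libraries of the aged and young treated groups did not overlap in 17.3% of genes with aged higher and 13.6% with aged lower, and in untreated mice in 12.4% and 10.8%. At an unadjusted p below 0.05, Prss1 was higher in aged caerulein mice (log2 fold change 1.53 ± 0.60, unadjusted p = 0.0259) and Prss3 lower in aged untreated mice (-1.94 ± 0.62, unadjusted p = 0.00998). Leaving out 1 library at a time moved the Prss1 value between 0.67 and 2.06 and the Prss3 value between -2.33 and -0.94. Prss3 had 5344 CPM in young untreated mouse 2, against 1014 in mouse 1 and 1638 in mouse 3. The difference between the 2 caerulein responses was called for 0 of 7 members, against 0.0142% of all genes, 0.00709% higher and 0.00709% lower. It was 2.94 ± 0.94 for Prss1 (adjusted p = 0.256), 2.27 ± 0.80 for Prss3 (adjusted p = 0.308) and between -0.27 and 0.39 for the other 5 members. Leaving out 1 library at a time moved it between 2.08 and 3.47 for Prss1 and between 1.24 and 2.66 for Prss3. DESeq2 called 0 members in these 3 comparisons as well. The Prss1 responses of aged and young mice are thus not shown to differ. With no filter on low counts, 2 members were called lower in aged untreated mice, 1 higher in aged treated mice and 2 in the difference, Prss1 in all 3. In these comparisons that fit called 635, 507 and 547 of all 27020 genes in the same directions. The main fit called 5, 347 and 1 of 14113.

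Prss1, Prss3, Gm5771 and Gm10334, whose transcripts are 95.3% to 98.8% identical in pairs, spread widely between mice of a group. Gm5771 had 295.1, 48.01 and 202.3 CPM in aged caerulein mice 1 to 3, 141.9, 58.82 and 77.67 in young caerulein mice, 92.44 and 61.91 in aged untreated mice, and 185.4, 3011 and 483.7 in young untreated mice. Gm10334 had 89, 17.43 and 50.53 CPM in aged caerulein mice, 28.16, 11.92 and 18.95 in young caerulein mice, 14.36 and 11.8 in aged untreated mice, and 16.9, 104.3 and 27.25 in young untreated mice. All 4 genes were lowest in mouse 2 and highest in mouse 1 of both caerulein groups, and highest in the untreated mouse whose lymphoid and fat markers stood out. Gm5771 was called lower after caerulein in young mice (-3.73 ± 0.96, adjusted p = 0.00734, and -1.90 without untreated mouse 2). What those markers have to do with these genes was not tested.

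The largest changes at the trypsin cluster lay outside the members. Gm2663, 1810009J06Rik and Gm4744 were close to silent in untreated pancreas and reached 6161 or more counts in every treated one. Gm2663 had 109940, 81956 and 53785 counts in aged caerulein mice and 78150, 78541 and 68133 in young caerulein mice, against 43 and 84 in aged untreated and 33, 41 and 232 in young untreated mice. The log2 fold change was 9.82 ± 1.01 in aged (adjusted p = 1.57e-05) and 9.24 ± 0.81 in young mice (adjusted p = 4.02e-06). 1810009J06Rik rose by 8.86 ± 0.78 in aged and 8.45 ± 0.63 in young mice, and Gm4744 by 8.95 in aged and 9.03 in young mice. Each of the 3 was called higher at both ages in all 20 alternatives, and the smallest change among these was 7.98. Their age difference was called in neither treatment, at 0.15, 0.21 and 0.10 among treated mice.

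Gm2663 and 1810009J06Rik are almost the same sequence, and their sum is the safer value. With Gm4744 the 3 loci made up 0.649% to 0.714% of all counts in aged caerulein and 0.588% to 0.739% in young caerulein libraries, against 0.000677% to 0.000682% in aged untreated and 0.000355% to 0.00186% in young untreated libraries. Of the summed counts of the 6 trypsinogens and these 3 loci that was 6.55% to 7.05% in aged and 5.31% to 6.22% in young caerulein libraries. It was at most 0.0181% in untreated ones.

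Next to them, 2210010C04Rik went the other way. It had 26140, 27640 and 19280 CPM in aged caerulein mice, against 57650 and 67140 in aged untreated mice. In young caerulein mice it had 19680, 19530 and 20890 CPM, against 55550, 27120 and 57110 in young untreated mice. No treated library reached an untreated one of its age, and the log2 fold change was -1.36 ± 0.30 in aged (adjusted p = 0.00285) and -1.22 ± 0.27 in young mice (adjusted p = 0.00321), called under all 20 alternatives at both ages. Its transcript shared no window of 150 bases with the other loci. By FPKM, Gm2663 averaged 4225 in aged and 3788 in young caerulein mice, against 4.768 in aged and 6.588 in young untreated mice.

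**Figure D5:**
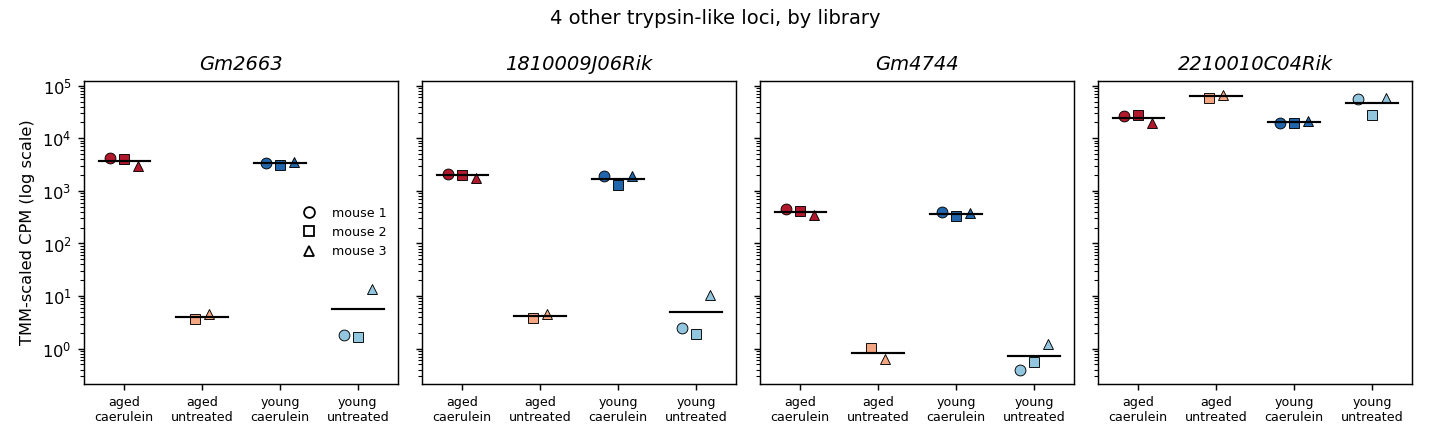
TMM-scaled CPM of 4 trypsin-like loci outside the members, by library, on a log axis. Points are libraries and short lines are group means. Gm2663, 1810009J06Rik and Gm4744 stand apart between treated and untreated mice, with Gm2663 at 2983 CPM or more in treated and 13.34 CPM or less in untreated libraries, and 2210010C04Rik is lower in treated mice.

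The promoters of these opposite neighbours are shown with that of Try4, a member that fell. Each line gives the 150 bases before the RefSeq start (GRCm38.p6), with TATAAA on the coding strand and CACCTG on either strand (written CAGGTG where it lies on the opposite strand) in capitals.
Gm2663, chr6:40999480-40999629, minus strand: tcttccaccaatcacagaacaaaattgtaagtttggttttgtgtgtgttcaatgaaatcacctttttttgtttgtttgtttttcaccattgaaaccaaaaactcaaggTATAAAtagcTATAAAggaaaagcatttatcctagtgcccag
2210010C04Rik, chr6:41035510-41035659, minus strand: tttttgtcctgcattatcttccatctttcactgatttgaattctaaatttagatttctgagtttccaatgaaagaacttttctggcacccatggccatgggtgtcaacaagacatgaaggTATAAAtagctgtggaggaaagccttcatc
Try4, chr6:41302122-41302271, plus strand: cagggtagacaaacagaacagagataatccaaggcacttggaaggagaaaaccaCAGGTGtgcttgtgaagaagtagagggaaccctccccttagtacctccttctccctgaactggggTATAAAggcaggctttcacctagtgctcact
RefSeq promoters were found for 8 of the 13 trypsin loci. The search covered chromosome 6 only, so Spink1 was not part of it. TATAAA was found in 8 of these 8 windows, against 7.57% of 32851 promoters of the same length searched on both strands. CACCTG, the E-box core bound by the acinar factor PTF1, was found in 5 of 8 against 10.6%, TTTCCC, from the TC-box of the PTF1 site, in 3 of 8 against 13.3%, and AAGGTCA, bound by the nuclear receptor NR5A2, in 0 of 8 against 2.31%. No motif contains another. A match is a description of the letters only, and the related loci share ancestry.

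The genes that act on trypsinogen were read next. Of 7 listed genes of activation and breakdown 6 were tested, and in each age 3 rose and 2 fell, against 27% higher and 21.2% lower over all genes in aged mice and 27.5% and 24.7% in young mice. Ctsb, cathepsin B, which can activate trypsinogen, had 256 ± 19.3 CPM in aged caerulein against 90.9 ± 7.46 in aged untreated mice (n = 3 and 2), a log2 fold change of 1.49 ± 0.22 (adjusted p = 0.000181). In young mice it had 147 ± 3.96 against 101 ± 31.3 CPM (0.54 ± 0.18, adjusted p = 0.0292), a call lost without untreated mouse 1 or 3 or any 1 young caerulein mouse (adjusted p of 0.0618 to 0.106), under the stricter filter (adjusted p = 0.0901) and with only the groups compared (adjusted p = 0.0917). It was higher in aged than in young treated mice (0.80 ± 0.18, adjusted p = 0.0369), a call that was lost when any 1 of the 6 treated or 2 aged untreated libraries was left out (adjusted p of 0.0647 to 0.146).

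Ctsl, cathepsin L, which degrades trypsinogen, rose by 2.02 ± 0.22 in aged and 1.57 ± 0.18 in young mice. Ctsc, cathepsin C, rose by 2.55 ± 0.22 in aged and 1.30 ± 0.18 in young mice, and was higher in aged than in young treated mice, at 178 ± 46.6 against 61.2 ± 4.51 CPM (adjusted p = 0.00203). Ctrc fell to 98.1 ± 4.06 CPM in aged caerulein mice, against 437 ± 23.6 in aged untreated mice, and to 96.0 ± 8.34 in young caerulein mice, against 332 ± 102 in young untreated mice (-2.16 ± 0.22 and -1.79 ± 0.21, adjusted p = 1.62e-05 and 3.11e-05). Ctsd, cathepsin D, fell slightly (-0.35 ± 0.11 in aged and -0.30 ± 0.10 in young mice), and both values turned positive with library totals, at 0.27 and 0.19. Tmprss15, enteropeptidase, had 1 count in 1 of the 11 libraries and 0 in the other 10, and was not tested.

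Of 23 listed inhibitors of trypsin-like proteases 9 were tested. In aged mice 2 rose and 2 fell, against 27% and 21.2% of all genes, and in young mice 2 rose and 4 fell, against 27.5% and 24.7%. Serpinb6a, a serpin of the cytosol, rose by 3.11 ± 0.21 in aged and 3.20 ± 0.18 in young mice, to 199 ± 2.03 and 206 ± 19.0 CPM, against 23.1 ± 2.36 in aged and 22.4 ± 5.29 in young untreated mice. Spint1, a Kunitz inhibitor of the cell surface, rose by 0.68 ± 0.20 in aged and 1.56 ± 0.18 in young mice, and the aged call was lost without untreated mouse 2 (adjusted p = 0.082) or mouse 3 (adjusted p = 0.105). Serpini2, the serpin made by acinar cells, fell by 1.29 ± 0.27 in aged and by 1.34 ± 0.25 in young mice. Itih5, with group means of 4.5 to 11.2 CPM, was called lower at both ages. Both Itih5 calls were lost with library totals alone (edgeR adjusted p = 0.51 in aged and 0.0918 in young mice). The aged one was also lost without caerulein mouse 1 or 3 (adjusted p = 0.0733 each).

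All 12 listed zymogens and cofactors that trypsin cuts, such as the colipase gene Clps (-2.13 ± 0.22 in aged and -1.97 ± 0.20 in young mice), the chymotrypsin-like Ctrl (-1.50 ± 0.22 and -1.50 ± 0.20) and the elastase gene Cela3a (-1.77 ± 0.20 and -1.81 ± 0.19), fell at both ages. Over all genes 21.2% were called lower in aged and 24.7% in young mice. The median log2 fold change of the 12 was -1.21 in aged and -1.22 in young mice, against -0.48 and -0.76 over the 6 trypsinogens. With library totals alone 10 of 12 were called lower in aged and 8 of 12 in young mice, with medians of -0.59 and -0.66. Of all 14113 genes that scaling called 1077 lower in aged and 1272 in young mice. With the mouse block 12 and 11 of the 12 were called lower, against 2793 and 3101 of all genes. Of 2 tested receptors that trypsin can cut, F2rl1, the protease-activated receptor of acinar and duct cells, rose by 3.21 ± 0.31 in aged and 3.47 ± 0.24 in young mice.

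Of 11 acinar transcription factors 2 rose and 5 fell in aged mice, against 27% and 21.2% of all genes, and 3 rose and 6 fell in young mice, against 27.5% and 24.7%. With library totals alone 4 rose and 3 fell at each age. Of all 14113 genes that scaling called 5453 higher and 1077 lower in aged mice, and 5330 and 1272 in young mice. The difference between the aged and young responses was called for 0 of the 11, and without young untreated mouse 2 for 1 higher and 1 lower. Over all genes these fits called 1 higher and 1 lower of 14113, and 201 higher and 110 lower of 13567. Rbpjl, a subunit of the PTF1 complex that drives digestive enzyme genes, fell to 60.5 ± 1.70 CPM in aged caerulein mice, against 401 ± 63.6 in aged untreated mice, and to 36.3 ± 7.37 in young caerulein mice, against 272 ± 58.6 in young untreated mice. Ptf1a, the complex's DNA-binding subunit, had 12.1 ± 3.37 CPM in aged caerulein against 12.4 ± 1.42 in aged untreated mice (-0.04 ± 0.34, adjusted p = 0.934), whereas in young mice it rose, with 37.3 ± 2.85 CPM after caerulein against 13.2 ± 5.68 untreated (adjusted p = 0.0015). Ptf1a was lower in aged than in young treated mice (-1.63 ± 0.30, adjusted p = 0.0134), a call lost without young caerulein mouse 1 or 3 or aged caerulein mouse 1 or 3 (adjusted p of 0.0515 to 0.067). Its difference of responses was -1.54 ± 0.45 (adjusted p = 0.204), and DESeq2 called it (adjusted p = 0.0428). Without young untreated mouse 2 edgeR called it too (-1.23, adjusted p = 0.0261), along with that of Bhlha15 (1.05, adjusted p = 0.0267).

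Within 200 kb of the members 12 genes other than the members were tested, the 3 trypsin-like loci Gm5771, Gm5409 and Gm10334 among them. Of the other 9, 6 rose at both ages. Over all genes 27% were called higher in aged and 27.5% in young mice, and the share called higher at both ages is not given here. Gm37527, among the genes that rose, lies inside Kel on the same strand. Gm37301, Trpv5 and Gm37527 were low, with group means of at most 6.31 CPM. These genes and Kel averaged at most 0.141 CPM in either untreated group. The filter on low counts could therefore keep them only through treated libraries. Their rise was fixed by that filter, so the count of genes that rose is a description only. Kel, an endopeptidase of red cells, averaged 190 CPM in aged caerulein and 169 CPM in young caerulein mice, against 0.126 CPM in aged and 0.141 CPM in young untreated mice. Trpv6, an epithelial calcium channel, rose by 3.83 in aged and 5.08 in young mice on the log2 scale. It was lower in aged than in young treated mice (log2 fold change -1.61), as was Ephb6, an ephrin receptor (-1.47).

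The genes whose levels followed the summed trypsinogens most closely over the 11 libraries, among 921 genes with a mean of at least 50 CPM, were Nedd4, Cst3, Selenof, Smarcc2 and Nrd1, with root mean square differences of centred log2 CPM of 0.114 to 0.129. For Spink1 they were Pnliprp2, Tceal9, Dmbt1, Retreg1 and Adk, at 0.116 to 0.162. The libraries share depth and acinar content, so this is a description only.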

How the data were processed

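Poly(A) RNA of mouse pancreas was sequenced in 11 libraries. The authors deposited counts per gene (HISAT2 2.0.5 and featureCounts 1.5.0-p3 on mm10, per the submitters' processing notes) and FPKM. Per the deposited values, FPKM equals count per length and library total times a factor per library. The strand setting of the counting is not given in the sources used here, so reads of antisense partners cannot be told apart. The authors' deposited tables of comparisons hold log2 fold changes and adjusted p-values, and a few are quoted.

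Counts were tested with edgeR 4.0.16 (R 4.3.3) by its quasi-likelihood test, with TMM scaling, filterByExpr on 4 groups (14113 genes), 1 fit of all 11 libraries and Benjamini-Hochberg adjustment over all genes tested. DESeq2 1.42.0 was an alternative. The fit was tested on simulated data. Shares and ratios within libraries were compared by exact permutation tests over samples, written for the purpose in Python 3.11.15. Library totals were 14223190 to 26537091 counts. The labels name 1 mouse per library, and p-values measure the spread between these samples. Between the young groups, libraries of the same mouse number deviated together in 3 of 3 pairs (correlations 0.106 to 0.149). The differently numbered pair of young untreated mouse 1 and young caerulein mouse 3 also reached 0.149, so a pairing by mouse number is not shown.

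Members and lists were chosen with earlier results of these data known. Named were all members and trypsin loci, and from each list up to 4 called genes with the smallest p in a comparison, besides Ctrc, Ctsb, Ctsl, Ctsd, Tmprss15 and Serpini2. Alternatives were other scalings and filters, the mouse number as a block and each library left out.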

Additional observations from a re-analysis of the deposited data

How the results depend on the processing

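Calls of members changed with the filter, the scaling and the libraries used. With library totals alone 1 member was called higher and 1 lower in young mice, and 1 higher and 0 lower in aged mice. Of all 14113 genes that scaling called 5330 higher and 1272 lower in young mice, and 5453 and 1077 in aged mice. Prss2 then changed sign in young mice (0.013), as did Try5 (0.50), and Ctsd in young (0.19) and aged mice (0.27), while sign changes of values that passed in neither fit are not counted here. With the replicate block, and with both high libraries left out (young untreated mouse 2 and aged caerulein mouse 1, an alternative chosen after seeing the data), 0 members were higher in aged mice. The block left 3 members lower in young and 2 in aged mice, against 3101 and 2793 of all 14113 genes. Beyond Prss2 at both ages and Prss1 in aged mice it changed no call of a member. With no filter on low counts 1 member was lower in aged mice after caerulein, and 2 were lower in aged than in young untreated mice. In that fit 1 was higher in aged than in young treated mice and 2 in the difference of responses. Of all 27020 genes it called 2652, 635, 507 and 547 in these directions. Leaving out 1 library at a time gave 1 to 5 members lower in young mice, and 0 to 1 higher and 0 to 4 lower in aged mice. The cause of these changes was not tested.

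With FPKM in place of counts, which weights genes by length, the trypsinogen share differed by 2.41 points between young caerulein and young untreated mice, 2.11 in aged mice, 2.26 for caerulein within age, -1.89 between aged and young treated mice and -1.74 for age within treatment. The Spink1 share differed by 0.0964, 0.0948, 0.0956, 0.0423 and 0.0431 points in the same order, and by 0.0439 between aged and young untreated mice. Spink1 per 1000 trypsinogen differed by 3.16, 3.21, 3.19, 4.21 and 4.19 in that order, and by 4.17 between aged and young untreated mice. With the other trypsin loci except Gm4744 added, the trypsinogen share differed by -0.539 (young caerulein), -1.07 (aged caerulein), -0.804 (caerulein within age) and -0.396 points (age, untreated). Spink1 per 1000 then differed by 1.24 (age, treated). The Prss2 share then differed by 1.63 (aged caerulein, the opposite sign), 1.47 (caerulein within age), 3.72 (age, untreated), 4.05 (age, treated) and 3.89 points (age within treatment), and the Try4 share by -2.27, -0.468 and -1.37 (young, aged and caerulein within age).

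Limits: 2 or 3 mice a group, near-identical loci, 1 aged untreated mouse fewer than young, and counting error far below the spread between mice.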
